A study of Mus musculus with 931 samples.

Results

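The cells described here are 89 single pancreatic α cells from mice at postnatal day 18 (P18, 44 cells) and postnatal day 15 (P15, 45 cells). They are among 917 labelled single cells of the series. Membership was set by the labels alone: every cell of these ages sorted or picked as red-fluorescent from Gcg-Cre; Rosa-RFP mice, in which Cre driven by the glucagon gene switches on a red fluorescent protein, and given no second hormone in its label. The P18 cells fall into 3 batches: batch 1 with 19 cells and batch 2 with 13 cells were sorted by flow cytometry (FACS), and batch 3 with 12 cells was picked by hand. The P15 cells fall into 2 batches, batch 1 with 24 FACS-sorted cells and batch 2 with 21 hand-picked cells. The other α cells used for comparison carry the same 2 alleles and came from P9 (45 cells in 3 batches) and P60 (83 cells in 5 batches). The β cells used for comparison were red-fluorescent cells of Ins1-RFP mice at P18 (71 cells in 3 batches) and P15 (57 cells in 3 batches). Among these comparison batches, α batch 4 at P9 and α batches 2, 3 and 4 at P60 were hand-picked. So were β batch 3 at P18 and β batches 1 and 2 at P15, and the rest were FACS-sorted. The α-cell mice had a mixed C57BL/6, CBA/J and C3H background and the β-cell mice a C57BL/6 and C3H background, so cell type cannot be told apart from strain or reporter. The Cre reporter marks a cell that has used the glucagon promoter at any time, so red fluorescence alone does not show that the gene is still active.

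α Cells make glucagon, the hormone that raises blood glucose by acting on the liver. The hormone is cut from proglucagon, the product of Gcg, inside secretory granules. In α cells the convertase PC2, encoded by Pcsk2, makes this cut, whereas β cells also carry PC1/3, encoded by Pcsk1. The transcription factors Irx1, Irx2 and Pou3f4 are among those that mark the α lineage. P15 and P18 lie just before weaning, when mice change from milk to solid food.

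Each cell was its own full-length cDNA library (Smart-seq2), so a count is a number of reads and not of molecules, and no molecular identifiers were used. The α cells held 537113 to 1491980 reads in genes, with a median of 1.07e+06. At an equal depth of 500000 reads they showed a median of 6341 detected genes (lowest 4426, highest 7942). Reads of the added spike-in RNAs were a median of 6.42% of all reads in P18 cells and 3.60% in P15 cells, against 3.48% in α cells at P9, 3.24% at P60, and 2.41% and 2.26% in β cells at P18 and P15. By batch the medians were 8.38%, 5.54% and 2.66% in P18 batches 1 to 3 and 4.63% and 3.22% in P15 batches 1 and 2. The hand-picked batch was the lowest at each age. Levels of different genes were compared as TPM (reads divided by gene length and scaled to the same total in every cell, spike-ins left out). Levels of a single gene in different batches were compared as CPM (the summed reads of a batch, scaled by its library size). The batch was the replicate in all tests. The labels name no animals, so p-values measure the spread between batches, which may be technical.

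Every cell expressed the glucagon gene at a high level, and second hormones are described further on. Gcg made up 29.8% to 61.7% of the TPM of a cell, with a median of 51.7%, and its mean over the 5 batches was 510170 ± 32890 TPM (SD, n = 5). Ttr, the transthyretin gene and an α-cell marker in the islet, averaged 32331 ± 3010 TPM. Chga, the granule protein chromogranin A, averaged 4434 ± 638 TPM. Each of these 3 genes was detected in 89 of 89 cells, and the lowest cell still held 297879 TPM of Gcg, 2569 TPM of Ttr and 1297 TPM of Chga.

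The transcripts of these cells were dominated by a few secretory genes. Apart from clone-named, ribosomal and mitochondrial genes, the 20 genes of the highest mean TPM together held a median of 68.0% of the TPM of a cell, with a range of 52.3% to 75.65%. After Gcg, Ttr and the RNA gene Yam1, the next were the peptide hormones Pyy (17124 ± 5075 TPM) and Ppy (16250 ± 14229 TPM). Yam1 (63671 ± 23266 TPM) overlaps exons of 2 other annotated RNA genes, so its reads cannot be assigned with certainty. Below them stood Gpx3, a secreted glutathione peroxidase, with 4967 ± 625 TPM. Genes of hormone processing followed: Resp18 with 4323 ± 793 TPM, carboxypeptidase E (Cpe) with 2396 ± 778 TPM, and the proprotein convertase inhibitor Pcsk1n with 2299 ± 288 TPM. Scg5, the chaperone of PC2, averaged 2203 ± 537 TPM and Pcsk2 itself 1656 ± 199 TPM. Pcsk1 averaged 0.957 ± 1.61 TPM and was detected in 2 of 44 P18 cells and 5 of 45 P15 cells. Of the rest of the 20, the protease inhibitor Cst3 had 2449 ± 442 TPM and the amylin gene Iapp 2144 ± 1310 TPM. Tmem27 (collectrin) had 1875 ± 157 TPM, the elongation factor Eef1a1 1589 ± 254 TPM, Itm2b 1369 ± 200 TPM and β-actin (Actb) 1205 ± 58.6 TPM. The nuclear RNA Malat1 had 1903 ± 553 TPM, and Ins2 had 2097 ± 4270 TPM, an average that rests on a single batch described further on.

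**Figure D1:**
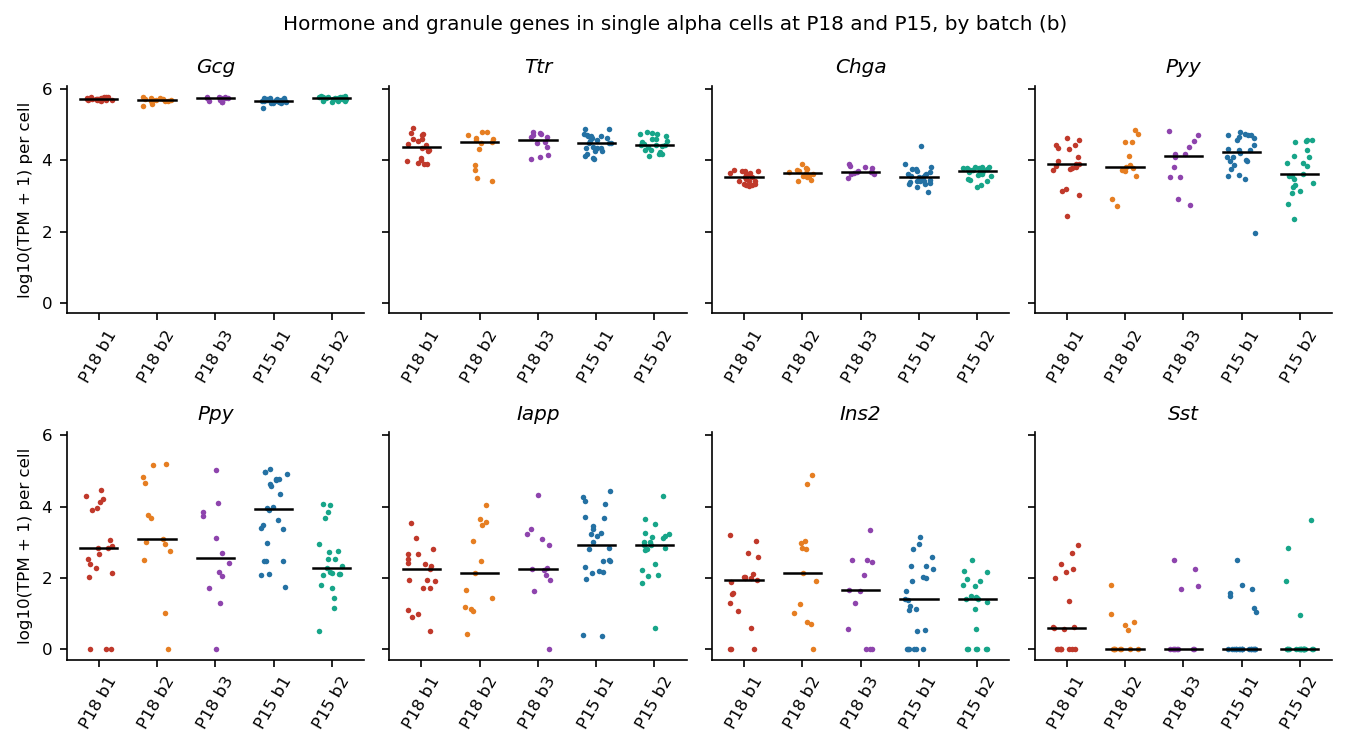
TPM of 8 genes in each of the 89 α cells (vertical axes, log10 of TPM + 1), with the 3 P18 batches left of the 2 P15 batches and a bar at the median of each batch. Gcg lies in a narrow band in all batches, Ttr and Chga are wider but read in every cell, whereas Ppy and Iapp run from 0 or near 0 to 156104 and 27749 TPM, and 2 cells of P18 batch 2 stand above all others in Ins2.

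Second hormones were common and uneven. Pyy encodes peptide YY and Ppy pancreatic polypeptide, related peptides whose genes lie next to each other on chromosome 11. Taking 1000 TPM as a level, chosen after the values were seen, 81 of 89 cells held Pyy at or above it, 41 held Ppy and 32 held Iapp. All 41 cells with Ppy at that level also held Pyy, 40 held Pyy only, and 8 held neither. Between 500 and 2000 TPM, near that level, lay 14 cells for Ppy, 11 for Pyy and 24 for Iapp, so the level divides a range and does not separate types. Ins2 reached 1000 TPM in 7 cells and Sst, the somatostatin gene, in 1 cell. Ins1 and the ghrelin gene Ghrl did so in 0 of 89 cells, which allows a share of up to 3.37%. Limits and intervals of this kind cover counting error only and take cells as independent, although cells share batches. Cells labelled with a second hormone were left out beforehand, so the counts of this paragraph describe the 89 members only.

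The 4 peptide genes expressed at the highest levels by these cells, apart from the insulins, have the following 150 bases upstream of their annotated start, printed to show the core promoters of transcripts that differ in their spread between cells. They are from RefSeq on GRCm38.p6, are written 5′ to 3′ on the strand of the gene, and have in capitals each TATAA on that strand and each CANNTG, the E-box pattern bound by helix-loop-helix factors, whose reverse complement has the same pattern. Gcg lies at chr2:62483654-62483803 on the minus strand, Ppy at chr11:102101320-102101469 on the minus strand, Pyy at chr11:102107833-102107982 on the minus strand and Iapp at chr6:142298275-142298424 on the plus strand.
Gcg: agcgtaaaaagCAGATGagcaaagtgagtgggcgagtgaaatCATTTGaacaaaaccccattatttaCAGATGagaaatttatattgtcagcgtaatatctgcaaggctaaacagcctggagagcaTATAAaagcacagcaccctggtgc
Ppy: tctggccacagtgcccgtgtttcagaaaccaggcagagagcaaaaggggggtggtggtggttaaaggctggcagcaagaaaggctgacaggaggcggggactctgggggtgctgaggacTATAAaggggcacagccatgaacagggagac
Pyy: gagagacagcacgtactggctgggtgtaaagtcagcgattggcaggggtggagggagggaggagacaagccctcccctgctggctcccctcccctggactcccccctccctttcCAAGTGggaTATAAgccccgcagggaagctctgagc
Iapp: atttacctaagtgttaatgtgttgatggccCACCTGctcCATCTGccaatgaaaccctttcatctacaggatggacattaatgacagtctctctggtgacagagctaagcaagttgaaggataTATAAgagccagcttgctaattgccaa
Each window holds 1 TATAA on the strand of the gene, beginning 24 bases before the start in Gcg, 31 in Ppy, 27 in Pyy and 27 in Iapp. Of 32851 mouse promoters cut to the same length, 9.994% hold TATAA on that strand. CANNTG occurs 3 times in Gcg, 0 times in Ppy, once in Pyy and 2 times in Iapp, and 47.66% of all promoters hold it. The letters are a description and not a test of binding.

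Ppy had the highest variation ratio of the genes compared further on (22.4, with Iapp at 21.75), although Iapp had the higher CV and Ins2 was not among them. In TPM, P18 batch 1 ranged from 0 to 28645 with a median of 691, P18 batch 2 from 0 to 156104 with a median of 1254, and P18 batch 3 from 0 to 109854 with a median of 383. P15 batch 1 ranged from 54.1 to 112511 with a median of 8582, and P15 batch 2 from 2.31 to 12106 with a median of 193. The highest and the lowest batch medians thus belong to P15, and the ages overlap. At or above 1000 TPM were 7 of 19, 8 of 13 and 5 of 12 cells of the P18 batches and 17 of 24 and 4 of 21 cells of the P15 batches. In the batch sums Ppy averaged 6408 ± 5982 CPM at P18 and 5903 ± 7388 CPM at P15 (SD, n = 3 and 2 batches), a difference within the spread between batches (adjusted p = 1).

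The highest Ppy cell, cell 5 of P18 batch 2, held 156104 TPM of Ppy beside 70894 TPM of Pyy and 368420 TPM of Gcg. The same cell had the highest Pyy of all 89. Across the cells of a batch Ppy and Pyy were positively related, with Spearman's rho of 0.237, 0.67 and 0.699 in P18 batches 1 to 3 (19, 13 and 12 cells) and 0.603 and 0.488 in P15 batches 1 and 2 (24 and 21 cells). For Gcg and Ppy rho lay between -0.371 and 0.216. Pyy and Iapp gave rho of 0.591, 0.467 and 0.692 in the P18 batches, and 0.384 and -0.192 in the P15 batches. These correlations describe cells that share a batch and its depth.

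**Figure D2:**
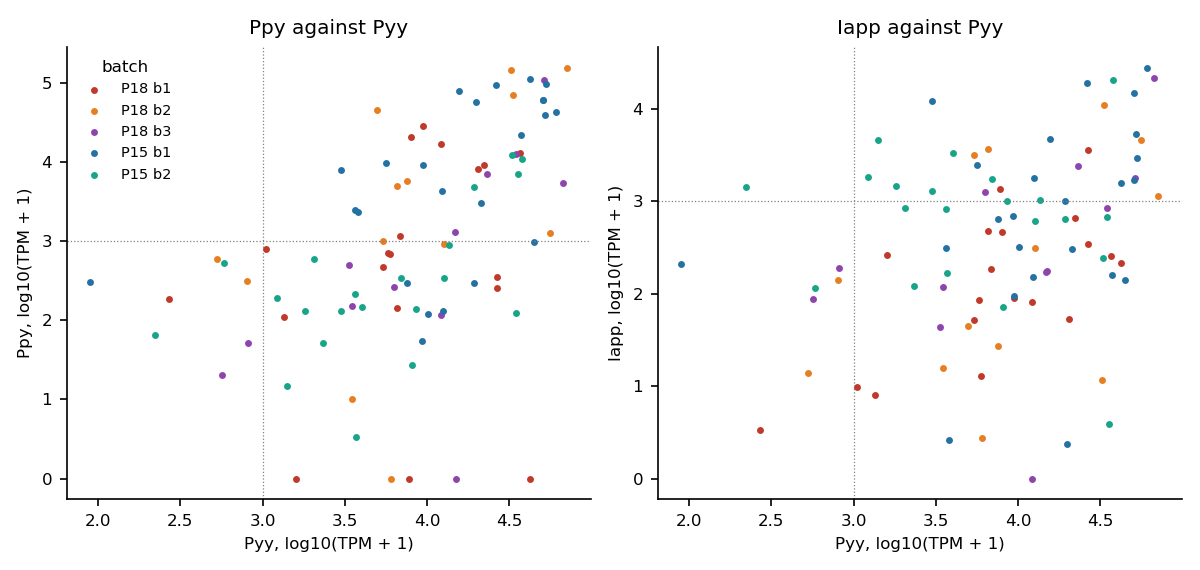
Ppy (left) and Iapp (right) against Pyy in each of the 89 α cells, all as log10 of TPM + 1, coloured by batch, with dotted lines at 1000 TPM. No cell lies above the Ppy line and left of the Pyy line, while the lower right field of the left panel holds 40 cells.

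Insulin transcripts were low in most α cells and high in 2. Cells 6 and 10 of P18 batch 2 held 79216 and 43700 TPM of Ins2, against a median of 37.2 TPM over all 89 cells. The third highest cell, in P18 batch 3, held 2288 TPM. The same 2 cells held 70104 and 145603 TPM of Ppy, 456341 and 321546 TPM of Gcg, and only 214 and 4.42 TPM of Ins1, which in 128 β cells had a median of 148074 TPM beside 560779 TPM of Ins2. Among batches, Ins2 therefore reached 4469 CPM in P18 batch 2 but 97.4 and 113 CPM in P18 batches 1 and 3, and 78.8 and 21.8 CPM in the P15 batches. The P18 batches all lay above the P15 batches, but the difference did not pass the test (log2 change 4.83 ± 1.17, SE, adjusted p = 0.171), and without P18 batch 1 it did. Each library was made from a sorted or picked cell, and no doublet caller was run. Whether a second cell bears on the values of these 2 cells was not tested.

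Traces of other hormones were set beside their detection in β cells. At equal depth Sst was detected in 38.6% of P18 and 24.4% of P15 α cells, against 52.1% and 50.9% of β cells of these ages. Before reads were made equal these shares were 45.5%, 24.4%, 54.9% and 52.6%. In batch sums Sst averaged 38.4 ± 42.5 CPM in α cells and 10.1 ± 6.87 CPM in β cells (SD, n = 5 and 6 batches, adjusted p = 0.231). Cells labelled with a second hormone were left out before this test, so its values hold for the cells kept. Whether the Sst reads are expression was not tested. Ghrl was detected in 25.0% of P18 and 40.0% of P15 α cells (27.3% and 48.9% before reads were made equal) and in 0 of 128 β cells, which allows a share of up to 2.34%. Gast, the gastrin gene, was detected in 45.5% and 33.3% of α cells against 9.86% and 14.0% of β cells, with the same shares at full depth. Gip and Npy had no read in any of the 89 cells, and Cck was detected in 1 cell.

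Beyond the hormones, variation between cells was led by genes of rapid response. For 1465 genes with at least 50 CPM in every batch, the squared coefficient of variation (CV, the SD over cells divided by the mean) was divided by the running median of genes of like mean, and the median of the 5 batches was taken. This ratio reached 4 in 10 genes: Ppy (22.4), Iapp (21.75), Pyy (8.32), Dusp1 (6.44), Btg2 (5.63), Fos (4.52), Egr1 (4.49), Ddc (4.45), Arg1 (4.14) and Gc (4.12). Dusp1, Btg2, Fos and Egr1 are immediate early genes, which a cell switches on within minutes of a stimulus. Ddc makes dopamine and serotonin from their precursors, Arg1 is arginase and Gc the vitamin D binding protein. The next 5 were Ier2 (3.89), Pdk4 (3.88), Rgs4 (3.54), Smarca1 (3.51) and Slc38a5 (3.50), a glutamine transporter of α cells.

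Fos ran from 0 to 2742 TPM in P18 cells, with a median of 331, and from 0 to 3767 TPM in P15 cells, with a median of 318. It was detected in 88.6% of P18 and 93.3% of P15 α cells and in 97.2% and 96.5% of β cells of the same ages. Fos and Egr1 went together in every batch, with rho of 0.578, 0.659 and 0.593 at P18 and 0.681 and 0.717 at P15. Other pairs of immediate early genes were less even between batches. Fos gave rho of 0.0525 to 0.857 with Btg2, -0.145 to 0.538 with Dusp1 and -0.141 to 0.605 with Ier2. Egr1 and Dusp1 gave 0.124 to 0.598. Whether handling of the cells bears on these genes was not tested. Arg1 reached 858 TPM in a P18 cell and was detected in 81.8% of P18 and 75.6% of P15 α cells, against 4.23% and 10.5% of β cells. At full depth the α-cell shares were 88.6% and 93.3% for Fos and 81.8% and 77.8% for Arg1.

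At the other end, 10 genes had the lowest ratios among 167 with at least 200 CPM in every batch. Gcg had a ratio of 0.123 and a CV of 0.143. It held a median of 38.1% of the reads of a cell, which a fixed total compresses, and no other gene has a like mean, so its ratio cannot be set beside the others. The next were Cst3 (0.206), Tpt1 (0.278), Pcsk2 (0.309), Yam1 (0.316), Ubb (0.340), Eif1 (0.352), Oaz1 (0.357), Malat1 (0.385) and Ddx5 (0.386). Pcsk2 thus varied with a CV of 0.197 between cells, while Ppy had 1.71 and Iapp 1.96. Spike-in RNAs, which hold the technical part only, had median CVs of 0.103 to 0.145 at 1000 to 5000 CPM, where genes had 0.319 to 0.417. At 200 to 1000 CPM the spike-ins had 0.295 to 0.396 and genes 0.488 to 0.536. At 50 to 200 CPM, where most of the 1465 genes lie, the spike-ins had 0.609 to 0.762 and genes 0.802 to 0.880, values closer to each other than at the higher levels.

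**Figure D3:**
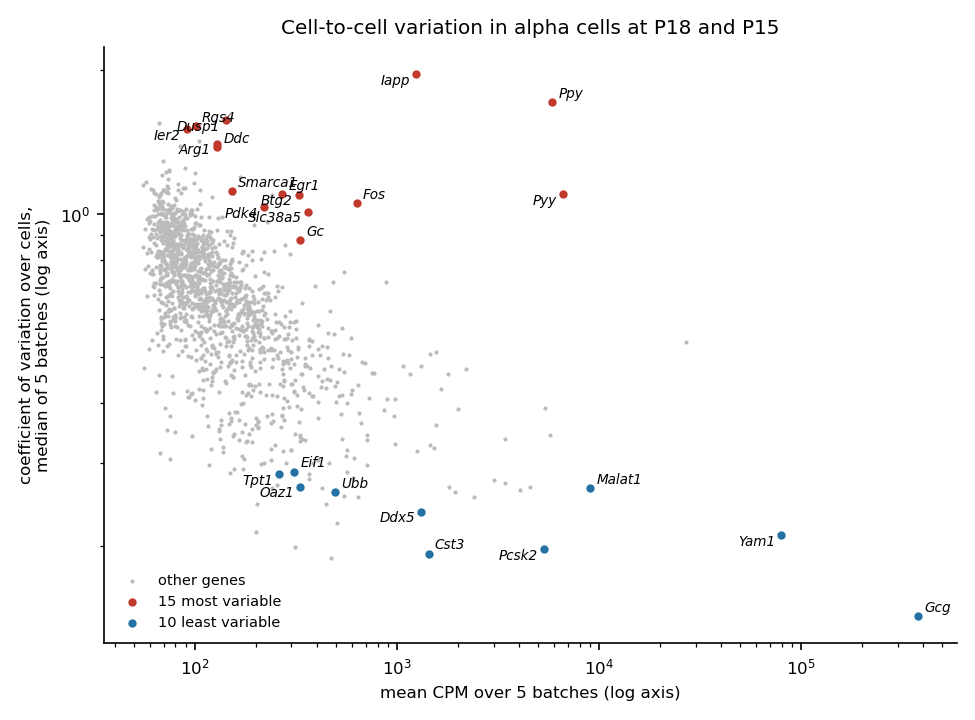
CV over cells (vertical, log axis, median of the 5 batches) against mean CPM (horizontal, log axis) for the 1465 genes with at least 50 CPM in every batch. Named points are the 15 most and the 10 least variable genes for their level: Iapp, Ppy and Pyy stand far above the cloud and Gcg lies at its lower right end with a CV of 0.143.

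The median Spearman's rho over pairs of cells was 0.374 to 0.398 within a batch and 0.375 to 0.384 to cells of the other batches (9752 genes). At equal depth 1295 genes were detected in at least 90% of the 89 cells, and 909 were when detection meant at least 5 reads. A further 3671 genes were detected in 20% to 80% of the cells of every batch. The 10 most abundant of them were Ddc, Ccng1, Ugt2b34, Kctd12b, Sesn2, Syne4, Eif2s3y, Hgfac, Sstr3 and Nxph1. Nxph1, a ligand of neurexins, was found in 63.6% of P18 and 64.4% of P15 α cells and in 0 of 128 β cells. Sstr3, a somatostatin receptor, was found in 75.0% and 62.2% of α cells and in 88.7% and 93.0% of β cells. At full depth the α-cell shares were 68.2% and 64.4% for Nxph1 and 75.0% and 64.4% for Sstr3.

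The lineage factors were detected in different shares of the cells. Etv1 (124 ± 21.8 TPM) was detected in all 89 α cells, against 25.4% of P18 and 49.1% of P15 β cells. Irx2 (32.5 ± 15.0 TPM) was detected in 70.5% of P18 and 86.7% of P15 α cells, Pou3f4 (11.1 ± 3.45 TPM) in 29.5% and 48.9%, and Irx1 (2.85 ± 1.12 TPM) in 34.1% and 51.1%. In β cells Irx2 was detected in 1 of 71 P18 cells, Pou3f4 in 3 of 71 and 2 of 57 cells, and Irx1 in 0 of 128. At full depth the α-cell shares were 70.5% and 88.9% for Irx2, 34.1% and 53.3% for Pou3f4, and 43.2% and 55.6% for Irx1. At these levels a cell without a read is not shown to lack the transcript. Transcripts of 4 Y-linked genes were found in 88 of the 89 α cells and in every cell of the α P9, α P60 and β groups used here. Xist, the X-inactivation RNA, was read in 6 of the 89, each of which also held Y-linked transcripts. These genes were chosen after their values were seen.

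Few genes passed the test between P18 and P15 α cells. With 3 batches against 2, 3 of 18537 tested genes passed an adjusted p of 0.05 (0.0162%), 1 higher (0.00539%) and 2 lower (0.0108%) at P18. At an unadjusted p of 0.05, 1302 genes (7.02%) passed, and DESeq2 called 242. At the common dispersion of 0.648 large changes could miss the threshold, so the small count does not show that the ages are alike. The 3 genes are named because they passed, after their values were seen. Fam83g, a member of a family of casein kinase anchors, had 13.4, 26.8 and 13.7 CPM in the P18 batches, against 3.07 and 1.09 CPM in the P15 batches (log2 change 3.10 ± 0.57, SE, adjusted p = 0.0204). Tubb3, a neuronal β-tubulin, had 0 reads in the 3 P18 batches, against 8.12 and 4.81 CPM in the P15 batches, and was at least 96.3-fold lower (adjusted p = 0.0204). Hspa12a, of the HSP70 family, had 0 reads at P18, against 2.31 and 4.85 CPM at P15, and was at least 53.4-fold lower (adjusted p = 0.0204). Both bounds take 3 reads over the P18 group as the floor. They count reads as independent, so they are not limits that cover the spread between cells or batches. The batches of the ages did not overlap in any of the 3. At P9 Fam83g had 10.5, 21.1 and 11.9 CPM, within reach of the P18 batches. Fam83g shares exon bases with Slc5a10 and Hspa12a with Eno4, each on the opposite strand, and strand use in counting is not given in the sources used here, so their reads may be split wrongly. None of the 3 passed in the fit of these 2 ages alone, with FACS-sorted batches only or without P18 batch 3.

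In none of the 17 gene lists, of 11 to 79 tested genes each, did a member pass between the ages in either direction. The median log2 change was -0.07 for 11 α identity genes, 0.08 for 14 genes of prohormone processing, -0.04 for 20 ER folding genes, -0.06 for 73 genes of oxidative phosphorylation and 0.14 for 79 ribosomal protein genes, beside -0.02 over all genes tested. Medians further from 0, also with 0 genes called, were -1.05 for 13 β identity genes, -0.84 for 15 genes of immature endocrine cells and -4.57 for 31 proliferation genes. Gcg had 398130 ± 16382 CPM at P18 and 385344 ± 24806 CPM at P15 (SD, n = 3 and 2 batches).

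A few cells with most of the listed cell-cycle transcripts were found at P15. Of 31 genes of DNA replication and mitosis, cells 21 and 1 of P15 batch 1 expressed 30 and 27, and cell 21 of P15 batch 2 expressed 24. No other cell passed 14, and the median was 6. These 3 cells held 79.3, 101 and 71.1 TPM of Mki67, the Ki-67 proliferation antigen, and 472.7, 359.9 and 366 TPM of Cdk1, which drives entry into mitosis, and kept 417689, 462918 and 447891 TPM of Gcg. Cell 1 also had the highest Iapp of all 89 cells (27749 TPM) beside 60220 TPM of Pyy. Taking 16 of the 31 genes as the line, chosen after the values were seen, 0 of 44 P18 cells passed, which allows up to 6.82%, against 3 of 45 P15 cells. At the other ages 3 of 45 α cells at P9 and 0 of 83 at P60 passed, and in β cells 0 of 71 at P18 and 4 of 57 at P15.

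In batch sums the 31 genes reached 125, 107.5 and 99.4 CPM in the P18 batches, against 1217 and 755 CPM in the P15 batches. The sums were 253, 210 and 1645 CPM in the P9 batches, and 111 to 173 CPM in the P60 batches. Mki67 had 0, 1.49 and 0.0746 CPM at P18, against 57.4 and 21.0 CPM at P15. The ages did not overlap, yet the change did not pass (log2 change -6.23 ± 1.92, SE, adjusted p = 0.431), and 0 of the 31 genes were called.

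Against α cells at P9, 9 of 18537 genes passed (0.0486%), 5 higher (0.0270%) and 4 lower (0.0216%) near weaning. At an unadjusted p of 0.05, 1949 (10.5%) passed. The circadian repressor Cry2 had 168, 205, 248, 90.0 and 128 CPM in the 3 P18 and 2 P15 batches, against 43.0, 46.3 and 54.6 CPM at P9 (log2 change 1.61 ± 0.33, SE, adjusted p = 0.0401). The somatostatin receptor gene Sstr3 averaged 75.4 ± 27.9 CPM near weaning and 24.2 ± 5.13 CPM at P9 (SD, n = 5 and 3 batches, adjusted p = 0.0233). It was the only 1 of 16 receptor genes called. Abcc5, an exporter of cyclic nucleotides, averaged 103 ± 24.6 against 36.9 ± 17.4 CPM (adjusted p = 0.0233). Fbxo44, a subunit of a ubiquitin ligase, averaged 25.8 ± 7.20 against 6.76 ± 3.29 CPM (adjusted p = 0.0374), and Rsrp1 536 ± 33.5 against 310 ± 31.9 CPM (adjusted p = 0.0130).

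Among the genes that fell, Bex2 averaged 160 ± 13.2 CPM near weaning and 266 ± 38.1 CPM at P9 (adjusted p = 0.0172). The proteasome subunit gene Psmd13 averaged 49.8 ± 2.69 against 96.5 ± 16.3 CPM (adjusted p = 0.0374), and H1f0, a linker histone of cells that have left the cycle, 82.4 ± 20.4 against 193 ± 86.8 CPM (adjusted p = 0.0379). The 8 batches did not overlap between the age groups in any of these. Cry2, H1f0 and Psmd13 each share exon bases with a gene on the opposite strand. With FACS-sorted batches only, or without P15 batch 2, 0 genes passed against P9.

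The largest fall was in a gene of another cell type. Ctrb1 encodes chymotrypsinogen, a digestive enzyme of acinar cells. It had 2.57, 6.16, 3.804, 1.18 and 2.99 CPM in the 5 batches near weaning, against 101, 95.8 and 371 CPM at P9 (log2 change -6.01 ± 1.03, SE, adjusted p = 0.0130). The summed level of 9 acinar markers was 33.65 to 59.3 CPM at P18, 6.14 to 19.25 CPM at P15, 385 to 1108 CPM at P9 and 46.3 to 225.5 CPM at P60, with 8 of the 9 read and the acinar factor Ptf1a at 0 in the α cells near weaning. Its part in the result was not tested. No listed hormone gene passed this test. Ppy averaged 6206 ± 5623 CPM near weaning and 678 ± 248 CPM at P9 (adjusted p = 0.349), with overlapping batches. Ghrl averaged 22.2 ± 8.38 CPM near weaning and 144 ± 54.6 CPM at P9 (adjusted p = 0.401), and its batches did not overlap.

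Against α cells at P60, 25 genes passed (0.135%), 17 higher (0.0917%) and 8 lower (0.0432%) near weaning, and 1931 (10.4%) passed at an unadjusted p of 0.05. Mlxipl, which encodes the glucose-responsive factor ChREBP, had 37.7, 54.3, 53.0, 41.7 and 32.9 CPM in the 5 batches near weaning. It had 12.5, 5.98, 7.65, 7.41 and 19.8 CPM in the 5 batches at P60 (log2 change 1.99 ± 0.27, SE, adjusted p = 0.000142). Ghrl had 13.9, 13.9, 32.1, 22.2 and 28.8 CPM near weaning, against 0 to 0.524 CPM at P60 (log2 change 7.69 ± 1.59, SE, adjusted p = 0.0367). The clock gene Per3 averaged 56.1 ± 22.9 CPM near weaning and 10.8 ± 4.84 CPM at P60 (SD, n = 5 batches each, adjusted p = 0.0367). In all 3 genes every batch near weaning lay above every batch at P60. Mlxipl, Ghrl and the further gene Exoc5 share exon bases with a gene on the opposite strand.

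Pabpc1, the poly(A)-binding protein, averaged 116 ± 18.1 CPM near weaning and 64.0 ± 10.0 CPM at P60 (adjusted p = 0.00197). Exoc5, of the exocyst tether, averaged 54.5 ± 15.5 against 28.1 ± 4.90 CPM (adjusted p = 0.0367). Itm2c, an integral membrane protein, averaged 446 ± 75.6 against 809 ± 130 CPM (adjusted p = 0.00359), and Abhd12, a lipase, 27.6 ± 5.35 against 52.3 ± 12.0 CPM (adjusted p = 0.0408). Outside the rule for naming, Tmem27 was lower near weaning, with 1829 ± 210 CPM against 2820 ± 544 CPM at P60 (adjusted p = 0.0367), with batches that overlapped (highest 2114 near weaning, lowest 2037 at P60), and is given because it is among the 20 genes of highest TPM. In the α identity, prohormone processing, ion channel, exocytosis, fuel metabolism and ER folding lists 0 members passed. The islet hormone and islet transcription factor lists had 1 each, Ghrl and Mlxipl. With 0.135% of all genes called, a count of 0 does not show that a list was unchanged. With only the α cells of these ages fitted 0 genes passed against P60, and with FACS-sorted batches only 9 did, none of them among the genes with values here. Collection times of day are not given in the labels.

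**Figure D4:**
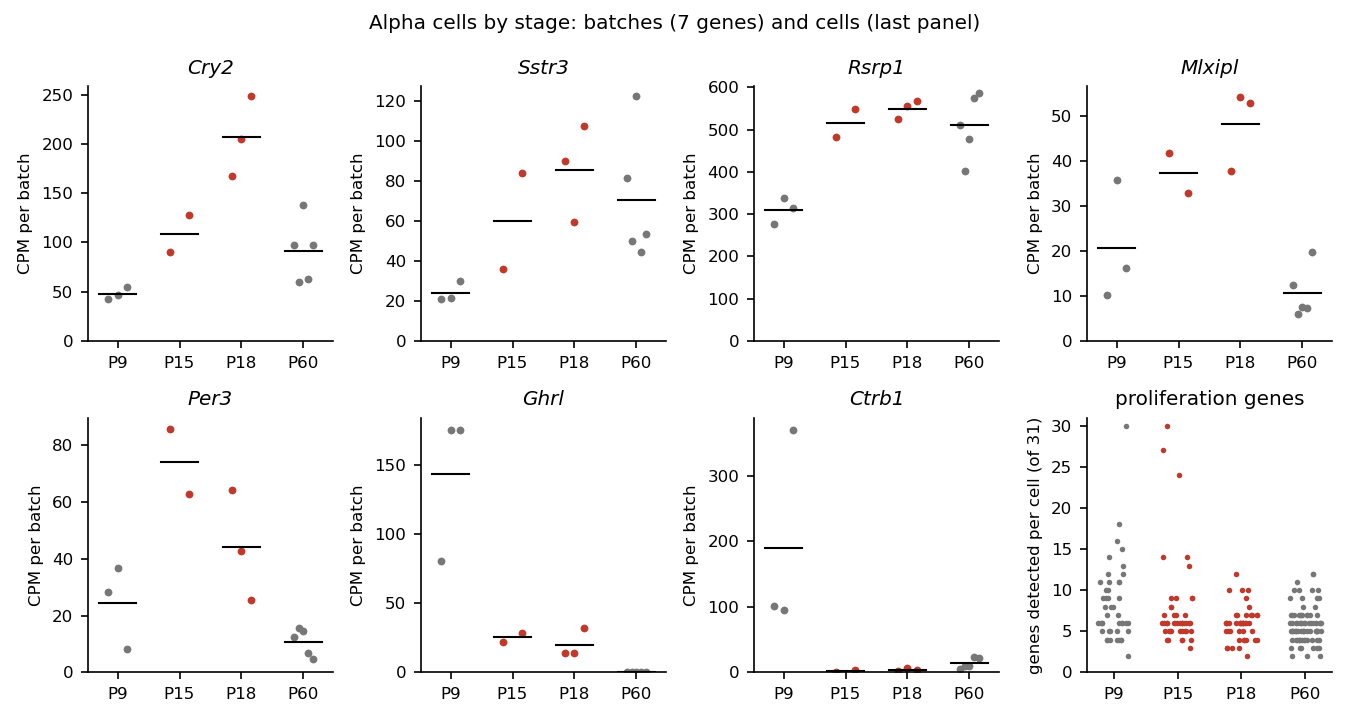
CPM per batch of 7 genes that passed against α cells at P9 or at P60, by stage from P9 to P60 (bars, stage mean), and in the last panel the number of 31 proliferation genes detected in each α cell. The P15 and P18 batches (red) lie above P9 for Cry2, Sstr3 and Rsrp1, above P60 for Mlxipl, Per3 and Ghrl, and below P9 for Ctrb1, while 3 P15 cells express 24 or more of the 31 genes.

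Against β cells of the same ages the differences were broad. Of 18537 genes 2802 passed (15.1%), 1395 higher (7.53%) and 1407 lower (7.59%) in α cells. At an unadjusted p of 0.05, 4990 (26.9%) passed. With limma on cell means the split was 2802 higher and 926 lower, with the median of all genes shifted to 0.20 on the log2 scale. Of 11 α identity genes 10 rose in α cells (median log2 change 5.46 for the 11, against 0.01 over all genes tested), all but Tm4sf4, which averaged 609 ± 68.7 CPM in α cells and 701 ± 144 CPM in β cells (SD, n = 5 and 6 batches, adjusted p = 0.769). Ttr averaged 28124.5 ± 2843 CPM in α cells and 634 ± 144 CPM in β cells (adjusted p = 1.2e-15).

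Of 13 β identity genes 12 fell in α cells (median log2 change -6.07 for the 13), beside 7.59% of all genes called lower. Ins1 averaged 67.1 ± 28.8 CPM in α cells and 202629 ± 25334 CPM in β cells (adjusted p = 5.2e-14), and Iapp 1283 ± 739 against 66958 ± 9783 CPM (adjusted p = 1.0e-11). Ero1lb, an oxidase of insulin folding, averaged 125 ± 40.8 against 2255 ± 506 CPM (adjusted p = 2.0e-14). Pdx1, the β-cell factor, had 0 to 7.61 CPM in the α batches against 170 to 294 CPM in the β batches (adjusted p = 2.5e-06).

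The largest rises in α cells after Gcg were Higd1a, a mitochondrial protein of the hypoxia response, Nxph1 and the oxytocin receptor gene Oxtr. Higd1a had 130 to 170 CPM in the α batches against 0 reads in the β batches (adjusted p = 7.4e-15). It was at least 7443-fold higher with 3 reads over the group at 0 as the floor, here and below. Such bounds count reads as independent and do not cover the spread between cells or batches. Higd1a shares 683 exon bases with a gene on the other strand. Nxph1 had 32.8 to 109 CPM against 0 reads, at least 3694-fold higher (adjusted p = 6.3e-06). Oxtr had 63.5 to 254 CPM against 1 read in all β batches (adjusted p = 6.1e-07). The largest falls were Frzb, a secreted Wnt antagonist, the granule docking gene Sytl4, the GLP-1 receptor gene Glp1r, Msln and the purine receptor gene P2ry1. Frzb had 0 reads in α cells against 319 ± 54.3 CPM in β cells, at least 10034-fold lower (adjusted p = 1.5e-09). Glp1r had 0 reads in α cells against 230 ± 42.1 CPM in β cells, at least 7236-fold lower (adjusted p = 1.1e-11). Sytl4 had 1 read in α cells against 510 ± 157 CPM in β cells (adjusted p = 9.8e-14).

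Processing genes differed in both directions. Of 14 genes of prohormone processing and granins, 6 rose in α cells (Pcsk2, Pam, Pcsk1n, Scg5, Vgf and Cpe) and 6 fell (Scg2, Pcsk1, Chga, Slc30a8, Chgb and Scg3). Beside them, 7.53% of all genes were called higher and 7.59% lower. The split was 7 and 3 with limma on cell means, 3 and 4 with FACS-sorted batches only and 4 and 6 with no low-count filter, and the median log2 change of 0.10 became -0.02 with FACS-sorted batches, so no direction is given for the list. Pcsk2 averaged 5484 ± 652 CPM in α cells and 2369 ± 172 CPM in β cells (adjusted p = 1.3e-10). Pam, which amidates peptides, averaged 1305 ± 148 against 494 ± 93.4 CPM (adjusted p = 9.8e-08). Pcsk1 had 0 to 7.78 CPM in the α batches against 376 to 608 CPM in the β batches (adjusted p = 7.6e-08). Scg2, a granin, averaged 1377 ± 335 against 6802 ± 769 CPM (adjusted p = 8.1e-09), and Chga 5909 ± 913 against 11187 ± 1990 CPM (adjusted p = 2.7e-05).

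Of 20 ER folding and stress genes, 0 rose and 16 fell in α cells (median log2 change -0.96). This list and the ribosomal list below stand beside 7.53% of all genes called higher and 7.59% called lower. Sdf2l1, a chaperone partner induced by unfolded protein, averaged 31.9 ± 13.0 CPM in α cells and 239 ± 18.8 CPM in β cells (adjusted p = 5.1e-09). P4hb, a protein disulfide isomerase, averaged 511 ± 44.6 against 1024 ± 134 CPM (adjusted p = 1.7e-08), and the chaperone BiP (Hspa5) 684 ± 91.3 against 1412 ± 129 CPM (adjusted p = 7.4e-05). Of 79 tested genes of cytosolic ribosomal proteins 76 rose and 0 fell in α cells (median log2 change 1.09), among them Rplp0 with 737 ± 64.2 against 296 ± 36.5 CPM (adjusted p = 4.1e-11). Ribosomal protein genes have many near-identical pseudogenes, so their reads may be split or lost. Gcg averaged 393016 ± 18360 CPM in α cells, whereas Ins2 averaged 429054 ± 59096 CPM and Ins1 202629 ± 25334 CPM in β cells. The part of these dominant transcripts, or of the higher share of spike-in reads in α cells, was not tested.

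Receptors differed gene by gene. Of 16, 4 rose in α cells (Sstr2, the vasopressin receptor Avpr1b, the glutamate receptor Gria2 and the β-adrenergic receptor Adrb1) and 6 fell (Glp1r, Adra2a, Gcgr, Gipr, Ffar1 and Igf1r). Over all genes tested 7.53% were called higher and 7.59% lower. Sstr2 had 21.7 to 39.4 CPM in the α batches against 0 reads in the β batches, at least 1572-fold higher (adjusted p = 7.0e-11). Gcgr, the glucagon receptor gene, had 0 reads in α cells against 45.3 ± 18.1 CPM in β cells, at least 1427-fold lower (adjusted p = 5.6e-07). Gipr, the receptor of the incretin GIP, averaged 24.7 ± 4.13 against 69.5 ± 20.9 CPM (adjusted p = 5.4e-07).

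Of 12 genes of amino acid transport and synthesis 4 rose (Slc7a2, Slc38a5, Slc7a8 and Slc1a5) and 1, the asparagine synthetase Asns, fell. The arginine transporter Slc7a2 averaged 768 ± 113 CPM in α cells and 150 ± 56.1 CPM in β cells (adjusted p = 1.5e-08), and the glutamine transporter Slc38a5 367 ± 183 against 14.6 ± 15.8 CPM (adjusted p = 3.9e-08). Of 22 tested genes of fuel metabolism 4 rose (Pdk4, Glud1, Hk1 and Slc2a3) and 3 fell (Pkm, Aldoa and Pgk1), beside 7.53% of all genes called higher and 7.59% called lower. The counts were 7 and 2 with limma and 2 and 1 with FACS-sorted batches only, where the median log2 change of 0.09 became -0.40. Pdk4, which inhibits pyruvate dehydrogenase, averaged 225 ± 79.1 against 0.335 ± 0.695 CPM (adjusted p = 3.2e-10), and glutamate dehydrogenase (Glud1) 167 ± 31.3 against 75.6 ± 9.41 CPM (adjusted p = 2.7e-07). Hexokinase 1 (Hk1) had 5.64 to 25.4 CPM in the α batches against 0 reads in the β batches, at least 668-fold higher (adjusted p = 9.1e-05).

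Counts in the other lists, given here and in the next paragraph, are to be read beside the 15.1% of all genes called, 7.53% higher. Among 14 islet transcription factors Isl1 rose and Mlxipl, Insm1 and Pax6 fell in α cells. Mlxipl, the factor that was higher near weaning than at P60 in α cells, averaged 43.9 ± 9.42 CPM in α cells and 513 ± 150 CPM in β cells (adjusted p = 5.6e-12). Of 16 ion channel genes, 3 were called (Kcnk3, Kcnk16 and Scn3a, all higher), beside the 15.1% of all genes, and 6 with limma. Kcnk3 averaged 37.2 ± 17.47 CPM in α cells and 0.660 ± 1.08 CPM in β cells (adjusted p = 2.9e-05). Of 14 islet hormone and peptide genes 5 rose and 4 fell in α cells, with the directions of Gcg and Ins1 set in advance by collection. Of 15 genes of immature endocrine cells Rbp4 rose (896 ± 230 against 9.10 ± 9.75 CPM, adjusted p = 7.7e-11) and Nnat, Dlk1 and Igf2 fell, with Nnat at 1.93 ± 1.84 against 168 ± 129 CPM (adjusted p = 4.2e-08).

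Among 20 immediate early and heat shock genes Jun, Klf4, Atf3 and Klf6 rose, with Jun at 289 ± 130 CPM in α cells and 51.1 ± 29.9 CPM in β cells (adjusted p = 0.000426). Among 17 MHC class I and interferon genes H2-T23 and Ifit1 rose, a share no higher than the 15.1% of all genes called, and 5 rose with limma. Of 22 exocytosis genes 4 rose and 10 fell, and of 73 oxidative phosphorylation genes 2 rose and 13 fell. With limma on cell means these became 6 and 4, and 24 and 6, and both medians changed sign, as did those of the transcription factor and receptor lists, so no direction is given for these lists as a whole. Of 31 proliferation genes 0 were called in either direction, with 2 higher by limma and 1 lower with DESeq2 and with FACS-sorted batches only.

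**Figure D5:**
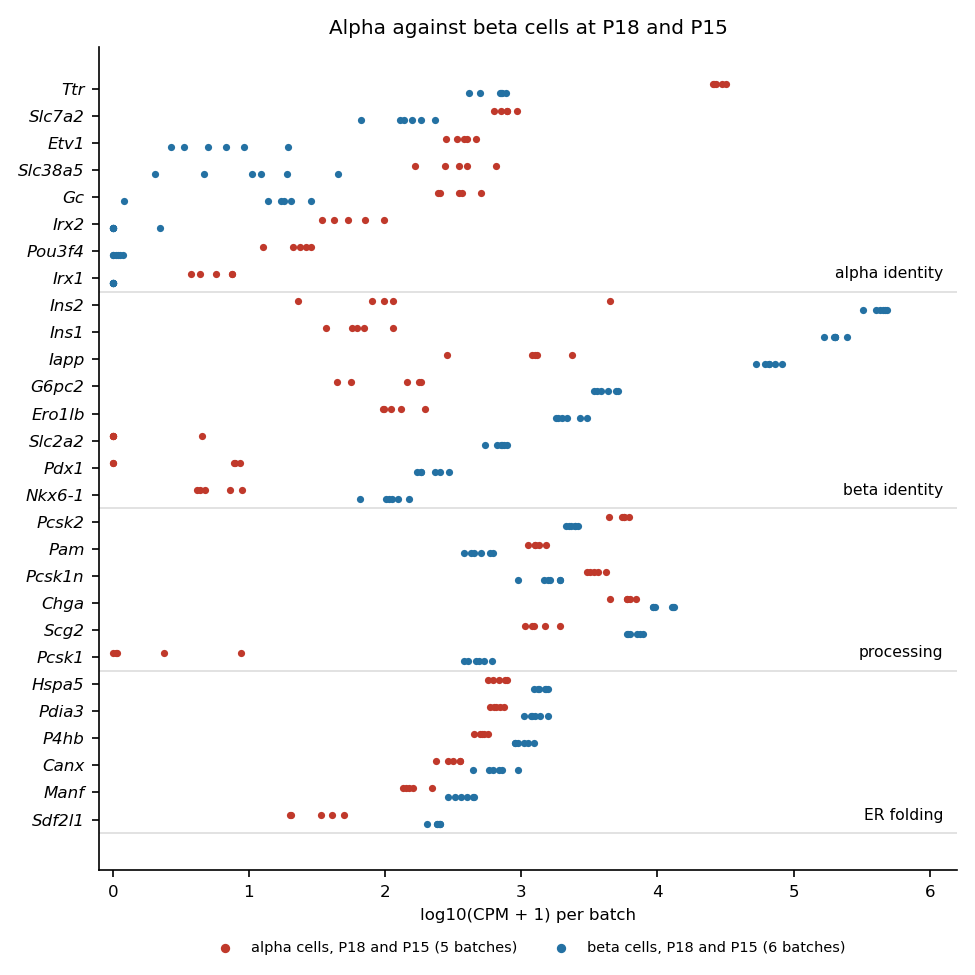
CPM per batch (horizontal, log10 of CPM + 1) of genes of 4 lists in α cells (red, 5 batches) above β cells (blue, 6 batches) at P18 and P15. The genes drawn are a chosen part of each list, without Tm4sf4, the α identity gene that was not called. The groups do not overlap in any of the genes drawn, which is not a result about the whole lists. The α identity genes drawn and Pcsk2, Pam and Pcsk1n are higher in α cells. The β identity genes drawn, Chga, Scg2, Pcsk1 and the ER folding genes drawn are lower.

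Markers of other cell types were read at different levels in the α batches near weaning. The immune markers Ptprc, Cd74 and Lyz2 and the endothelial markers Kdr, Cdh5 and Plvap were at 0, as were Sox10 of Schwann cells and Cftr of duct cells. The sum of the 6 endothelial markers was 1.04 to 7.11 CPM at P18 and 1.54 to 2.78 CPM at P15. The sum of the 6 immune markers was 30.7 to 65.4 CPM at P18 and 24.9 to 37.4 CPM at P15, against 2.89 to 16.0 CPM in β cells, and came almost wholly from C1qa, a complement gene, with 27.0 to 65.4 CPM at P18 and 24.6 and 37.4 CPM at P15. The part of these markers in the results was not tested. The sum of 4 δ-cell markers, 687 to 1267 CPM at P18 and 990 to 1030 CPM at P15 against 4.62 to 45.4 CPM in β cells, came mainly from Rbp4, while the δ-cell receptor gene Ghsr was at 0. The sum of 6 duct markers was 149 to 219 CPM at P18 and 164.5 to 195 CPM at P15, against 208 to 284 CPM in β cells. Of 4 Schwann markers 3 were read. Their sum was 0.149 to 13.4 CPM at P18, 3.88 to 7.78 CPM at P15 and 4 to 8.45 CPM in β cells. In the same order, 6 mesenchymal markers had 2.23 to 11.0, 10.3 to 20.1 and 0 to 0.583 CPM. The 5 erythroid markers had 3.74 to 32.8, 7.78 to 23.1 and 0 to 1.80 CPM.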

How the data were processed

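Gene counts are whole-number read counts per gene that the authors deposited as 1 table, with gene lengths. Tools named in the submitters' processing notes are DESeq (1.20.0), HTSeq (0.6.0) and TopHat2 (2.1.0), beside the builds GRCm38 and mm10. Their settings and the handling of strand are not given in the sources used here. The deposited GeneLength values (bases, unit other) served for TPM. The table held 40824 genes and 92 spike-ins. Spike-ins, 6 rows without a symbol and the cells labelled with several hormones stayed out of the tests.

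Counts were summed per batch over 866 cells in 45 batches and fitted with edgeR 4.0.16 (quasi-likelihood, TMM, R 4.3.3), all single-hormone groups sharing 1 spread, with Benjamini-Hochberg adjustment over 18537 genes. A gene was called at an adjusted p under 0.05. Collection method (FACS or hand-picked) was a covariate in the edgeR fit, so its log2 changes and p-values are adjusted for it. Printed CPM are TMM-scaled and are not adjusted for collection method. Comparisons near weaning weigh P18 and P15 equally. Detection means at least 1 read after thinning each cell to 500000 reads. The edgeR fit and the variation ratio were tested on simulated data.

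Named genes are the 5 largest rises and falls among called genes at 20 CPM or more with batches that do not overlap, the 2 called members of smallest p per list at 5 CPM or more, the 20 genes of highest TPM, the members of 3 lists, the 15 most and 10 least variable genes and the 10 most abundant with mixed detection, plus a fixed set of markers. Others were chosen after their values were seen. Members and lists were chosen with earlier results of these data known. Gene positions and overlaps are from GENCODE M21. Some genes of the α identity list are not reported here.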

Additional observations from a re-analysis of the deposited data

Results flagged for a closer look

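In 50 groups of batches tested for a batch apart, 5 were found. Chance alone marks about 5% of such groups. Ins2 in P18 batch 2 (4469 CPM) stood above the other 4 α batches near weaning, and so did Itm2b in the same batch (2221 CPM). In α cells at P60, Ppy was lowest in batch 3 (1299 CPM), Ghrl was highest in batch 3 (0.524 CPM), and Mki67 was highest in batch 4 (4.98 CPM).

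A cell of P18 batch 2 that the labels call Gcg+, Ppy+, Sst+ was not among the 89 cells. It held 25880 TPM of Ppy and 66420 TPM of Sst, beside 401110 TPM of Gcg and 191 TPM of the δ-cell factor Hhex. Ppy at its level was reached by members of the same batch (up to 156104 TPM), whereas the highest Sst among the 89 cells was 4350 TPM.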

How the results depend on the processing

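Counts of called genes differed between fits. P18 over P15 gave 3 genes, but 12 with no low-count filter, 0 with only these ages fitted, 1 with FACS-sorted batches, 20 with limma on cell means and 242 with DESeq2. Against P9, 9 became 5 with only the groups compared (2 of them among the 9), 0 with FACS-sorted batches, 111 with limma and 385 with DESeq2. Against P60, 25 became 0 with only the groups compared, 9 with FACS-sorted batches, 65 with limma and 405 with DESeq2. Against β cells, 2802 became 1844 with only the groups compared and 1653 with FACS-sorted batches, and limma gave 2802 higher and 926 lower, with a median shift of 0.20 (log2) over all genes.

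Batches of P18 and P15 share only a number, in 2 pairs, and no label ties them. With batch number as a replicate block, P18 over P15 gave 0 genes.

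Leaving out a batch gave 0 to 21 genes for P18 over P15 (0 without P18 batch 3, 5 without P15 batch 2, 11 without P15 batch 1, 16 without P18 batch 2, 21 without P18 batch 1). It gave 0 to 34 against P9 (0 without P15 batch 2, 5 without P15 batch 1 or P18 batch 3, 15 and 18 without P18 batches 2 and 1, 34 and 19 without P9 batches 2 and 4). It gave 13 to 53 against P60 (14 and 16 without P15 batches 1 and 2, 53 without P18 batch 1, 14 and 13 without P60 batches 4 and 5) and 1940 to 2701 against β cells. The genes with a variation ratio of 4 numbered 10 to 16 and those detected in 90% of cells 1292 to 1381, and detection gave 909 genes at 5 reads. Variation gave 15 genes with FACS-sorted batches only. Of the values of single named genes under these alternatives, 1105 kept their direction and side of the threshold, 235 lost the call, 2 gained it (Ins2 at P18 over P15) and 0 reversed. The cause was not tested.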
